A study of Mus musculus with 32 samples.

Results

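The genes of the red cell lineage followed here were the anion exchanger gene Slc4a1, the receptor gene Epor, the transcription factor genes Klf1 and Gata1, the haem synthesis gene Alas2, the globin chaperone gene Ahsp, and the carbonic anhydrase genes Car1 and Car2. They were chosen by name, with earlier results of these data known. Every probe set that the array annotation assigns to 1 of these genes alone was used. This gave 9 probe sets of 45101 on the array, covering 7 of the 8 genes: 3 probe sets for Slc4a1 and 1 each for the others. Ahsp was not analysed here. The whole array held 34945 probe sets with a single gene name, covering 18193 genes.

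In red cell formation, Gata1 and Klf1 are DNA-binding factors that switch on globin, haem and membrane genes, and signals from the erythropoietin receptor Epor keep the precursors alive. Alas2 carries out the first step of haem synthesis in these cells, and Slc4a1, also called band 3, exchanges chloride for the bicarbonate that carbonic anhydrases make from carbon dioxide. B-lymphocyte precursors arise from the same early progenitors under the factor Ebf1, and in mice a functional Ebf1 gene is needed for them to form.

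The series held 32 arrays from 3 experiments on mouse cells. In the first, the pre-B cell line 230238, an immature B-lineage line, carried a retrovirus with Ebf1-Eng, a fusion of Ebf1 to the Engrailed repressor domain (3 samples), or the empty vector (3 samples), and 500000 cells sorted for the vector's green fluorescent protein were used per sample. In the second, cells of fetal livers lacking Ebf1 (Ebf1-/-), taken at embryonic day 14.5 and grown on OP9 stroma with KIT ligand, FLT3 ligand and interleukin-7 at 10 ng/mL each, all carried Ebf1-ER, an Ebf1 fusion switched on by 4-hydroxytamoxifen. They were collected at 0, 6, 12 and 24 h of 0.1 uM 4-hydroxytamoxifen, with 2 arrays per time. The third set 8 enlarged lymph node samples of Ebf1+/- Pax5+/- C57BL/6 mice of about 30 weeks, with 2 arrays each, against 2 samples of sorted pro-B cells of wild-type C57BL/6 mice. Live cells of the whole frozen and thawed node were sorted, so genotype, tissue, freezing and cell mixture differ together between lymph nodes and pro-B cells and cannot be told apart. The age of the wild-type mice is not given in the sources used here, so age may differ too.

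All values are expression values on a log scale that had been centred for each probe set within its experiment. The base was taken as 2, as no source states it, and all fold changes rest on that. A value of 0 is therefore not an absent transcript. It is the median over the arrays for every probe set of the first 2 experiments, but for only 10846 of 45101 in the tumour experiment, where the constant subtracted from each probe set is not given in the sources used here. Only differences between arrays of 1 experiment can be read, and the labelled cell types could not be checked as levels. A probe set was called at an adjusted p under 0.05 from limma over all 45101 probe sets. The labels do not say whether replicates came from separate cultures or animals, so the tests reflect variation among these arrays, part of which may be technical. In bulk samples, fewer cells of a type and less RNA per cell cannot be told apart.

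Ebf1 itself was manipulated in all 3 experiments, in the tumour mice together with Pax5. In Ebf1-Eng cells 4 of its 5 probe sets were lower than in empty vector cells, by log2 changes of -1.501 to -1.768, and the probe set 1457441_at did not pass the test (-0.37 ± 0.15 SE, limma adjusted p = 0.194). In the lymph nodes the same 4 were lower than in wild-type pro-B cells by -0.72 to -1.01, and 1457441_at was higher by 4.48 ± 0.18 (SE, limma adjusted p = 8.1e-08). In the Ebf1-ER course the same 4 were lower at 6 h (-0.48 to -0.61) and at 24 h (-0.57 to -0.77) than at 0 h, 3 of them were called at 12 h, and 1457441_at was not called at any time. Which of these probe sets read the introduced constructs is not given in the sources used here.

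The region around the start of transcription was available for Klf1, Epor, Gata1 and Alas2. These 4 stretches of 300 bases, from 250 before to 50 after the start, are shown because Klf1, Gata1 and Alas2 were lower together in the lymph nodes, Gata1 also differed in the Ebf1-Eng cells, and Epor passed neither test. Each is written 5′ to 3′ along its gene, from RefSeq on build GRCm38.p6. Klf1 lies on the plus strand of chromosome 8 (chr8:84901732-84902031), Epor on the minus strand of chromosome 9 (chr9:21963527-21963826), Gata1 on the minus strand of the X chromosome (chrX:7967861-7968160) and Alas2 on its plus strand (chrX:150547167-150547466). Capitals mark GATA with A or T before it and A or G after it (bound by Gata factors), the letters CACCC (bound by Klf1 and its relatives) and TCCC and GGGA with 2 free bases between them (the core bound by Ebf1), each searched on both strands.
Klf1: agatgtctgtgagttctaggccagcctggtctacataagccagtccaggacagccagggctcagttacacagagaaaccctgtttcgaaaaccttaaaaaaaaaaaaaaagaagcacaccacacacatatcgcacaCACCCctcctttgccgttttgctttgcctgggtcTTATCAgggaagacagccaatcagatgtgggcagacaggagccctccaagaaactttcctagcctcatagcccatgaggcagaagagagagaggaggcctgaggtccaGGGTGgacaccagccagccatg
Epor: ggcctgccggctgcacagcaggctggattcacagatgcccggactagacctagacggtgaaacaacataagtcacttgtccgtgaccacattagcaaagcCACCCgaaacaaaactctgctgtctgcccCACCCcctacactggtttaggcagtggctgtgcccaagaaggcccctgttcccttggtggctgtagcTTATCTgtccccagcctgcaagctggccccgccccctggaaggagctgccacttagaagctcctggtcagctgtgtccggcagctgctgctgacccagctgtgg
Gata1: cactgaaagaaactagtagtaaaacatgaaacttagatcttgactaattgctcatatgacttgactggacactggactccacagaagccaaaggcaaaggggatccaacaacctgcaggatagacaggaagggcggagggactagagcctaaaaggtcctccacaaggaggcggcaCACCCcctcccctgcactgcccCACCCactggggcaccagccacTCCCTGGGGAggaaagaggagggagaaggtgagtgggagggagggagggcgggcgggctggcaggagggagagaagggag
Alas2: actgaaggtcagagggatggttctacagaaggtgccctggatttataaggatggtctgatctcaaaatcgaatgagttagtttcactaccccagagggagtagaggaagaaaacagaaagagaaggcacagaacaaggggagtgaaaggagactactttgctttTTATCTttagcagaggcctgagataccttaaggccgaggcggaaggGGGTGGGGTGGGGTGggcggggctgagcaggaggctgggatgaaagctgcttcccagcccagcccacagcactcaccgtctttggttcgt
One Gata motif stood in the Klf1 stretch (TTATCA from base 171), 1 in the Epor stretch (TTATCT from base 197) and 1 in the Alas2 stretch (TTATCT from base 165). The Gata1 stretch had none. Of 32851 mouse promoter stretches of the same length, 29.8% held such a motif. CACCC or its complement occurred 2 times each in Klf1, Epor and Gata1 and 3 times, end to end, in Alas2, and 57.5% of all stretches held at least 1. The Ebf1 core occurred only in Gata1 among the 4, as TCCCTGGGGA from base 221, and 0.904% of all stretches held it. The letters of different motifs did not overlap in these 4 stretches. A match of letters is a description and not a measured binding site.

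In the pre-B cell line, Gata1 was 2.08-fold higher and Car2 2.19-fold lower with Ebf1-Eng than with the empty vector. These were the 2 of 9 erythroid probe sets called, 1 in each direction, where 8.84% of all probe sets were called (5.13% higher and 3.72% lower). With so few members the share cannot be read against that background. The embryonic globin gene Hbb-y was also higher, while Klf1, Alas2, Epor and Slc4a1 did not pass the test.

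Gata1, on probe set 1449232_at, had log2 values of 0.87, 0.83 and 0.25 in Ebf1-Eng samples 1 to 3, against -0.55, -0.25 and -0.43 in empty vector samples. All Ebf1-Eng values lay above all empty vector values, with the third closest to them. The log2 change was 1.06 ± 0.18 (SE, n = 3 each, limma adjusted p = 0.0151). The call was lost when Ebf1-Eng sample 1, Ebf1-Eng sample 2 or empty vector sample 1 was left out, with adjusted p-values up to 0.0740 over all 14 alternatives.

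Car2, the highly active cytosolic carbonic anhydrase, had log2 values of -0.48, -0.37 and -0.35 with Ebf1-Eng, against 0.88, 0.97 and 0.35 with the empty vector on 1448752_at. The groups did not overlap, and the third empty vector sample was the lowest of its group. The log2 change was -1.13 ± 0.17 (SE, n = 3 each, limma adjusted p = 0.00851). It was not called without Ebf1-Eng sample 1 or in a single fit over all groups of the series, where the adjusted p reached at most 0.263.

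Car1, its close relative, had values of -0.31, -0.08 and -0.18 with Ebf1-Eng and 0.13, 0.08 and 0.10 with the empty vector. These did not overlap, but the change of -0.30 ± 0.09 (SE) was not called (limma adjusted p = 0.103). The other transcription factor, Klf1, differed by 0.09 ± 0.14 and the haem enzyme Alas2 by 0.19 ± 0.16 (SE). The receptor Epor differed by -0.10 ± 0.12, and the 3 Slc4a1 probe sets by -0.13, 0.01 and 0.20. None of these 6 probe sets was called, with limma adjusted p-values from 0.404 to 0.973.

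**Figure D1:**
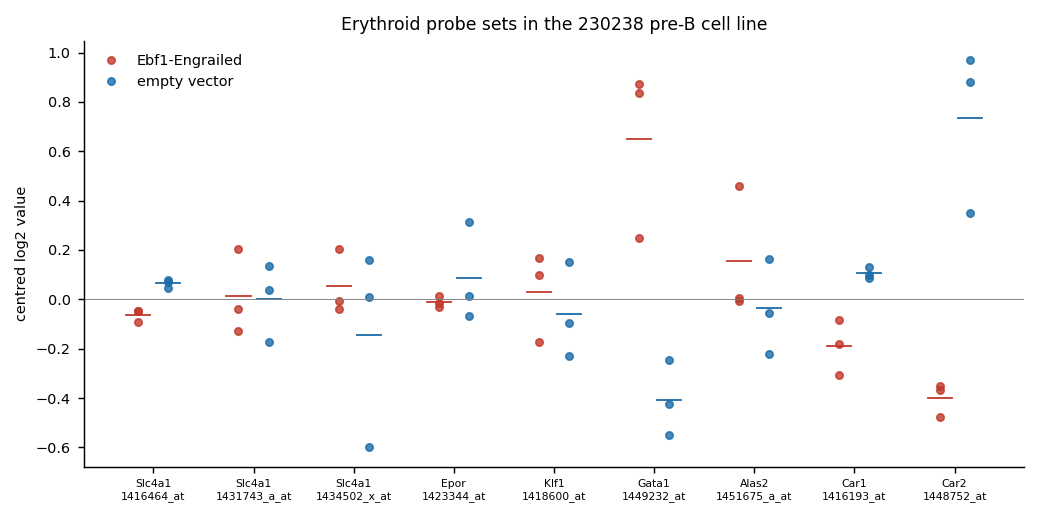
Centred log2 values (vertical axis) of the 9 erythroid probe sets in 230238 cells with Ebf1-Engrailed (red, left of each pair) and with the empty vector (blue), 1 point per sample and a bar at each mean (n = 3 each). Gata1 is higher and Car2 lower in every Ebf1-Engrailed sample than in every empty vector sample, and the means of Klf1, Epor and Slc4a1 lie close together.

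Among the globin genes, the oxygen-carrying chains, 3 of 11 probe sets were called higher and all 3 belonged to Hbb-y, the embryonic beta-like chain. The median of the 11 was 0.80, beside -0.02 over all probe sets. The largest change of the list, 2.97, was not called. The list mean was -1.30 in the lowest empty vector sample, against -0.39 and -0.33 in the others. On 1436823_x_at, Hbb-y had values of 1.63, 0.78 and 1.65 with Ebf1-Eng, against -0.86, -1.19 and -0.78 with the empty vector. The groups were far apart, and the log2 change was 2.30 ± 0.25 (SE, limma adjusted p = 0.00276). The second, 1436717_x_at, also changed by 2.30 and the third, 1450621_a_at, by 0.80 ± 0.17 (SE). The suffix x marks probe sets with probes that match other transcripts too, so near-identical globin copies may contribute to the first 2.

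Over the whole array 5.13% of probe sets were higher and 3.72% lower, and none of the lists was tested against these shares. Of the 22 probe sets for haem synthesis and mitochondrial iron import, 2 were higher and 1 lower. Cpox, which makes protoporphyrinogen from coproporphyrinogen, changed by 1.36 ± 0.16 (SE), Urod, the step before it, by 0.58 ± 0.12, and Uros, the step before Urod, by -0.50 ± 0.09. Of 29 probe sets for partner transcription factors of Gata1 and Klf1, 7 were lower and none higher. They belonged to Bcl11a, a repressor of embryonic and fetal globin genes (-2.07 ± 0.19), the cell cycle factor E2f2 (-1.20 ± 0.24) and Zfpm1, the Gata1 cofactor Fog1 (-1.06 ± 0.23). The median of that list was -0.32.

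Of 25 probe sets for iron uptake and other erythroid-enriched genes, 2 were higher, both of the second transferrin receptor Tfr2 (1.20 ± 0.16 SE on 1459994_x_at). Of 23 for red cell membrane and skeleton, 2 were lower, the amino acid carrier Slc43a1 and the glycophorin Gypc (-1.07 ± 0.13 and -0.83 ± 0.10). Of 28 for the other carbonic anhydrases, 3 were lower and 1 higher. Car3, the neighbour of Car2, fell by 2.39 on the log2 scale on 1449434_at (SE 0.17, limma adjusted p = 8.0e-04), with values of -1.30, -1.41 and -0.91 with Ebf1-Eng, against 1.25, 1.38 and 0.91 with the empty vector. On 1460256_at the values were -0.29, -0.68 and -0.73, against 0.91, 0.49 and 0.29. The groups overlapped on the Car3 probe sets 1430584_s_at and 1453588_at.

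Markers of other blood cells were set beside Gata1, which megakaryocytes, mast cells and eosinophils also use. Limma called 0 of 11 megakaryocyte probe sets (1 at an unadjusted p under 0.05) and 0 of 15 for mast cells, basophils and eosinophils (0 unadjusted). It called 0 of 12 myeloid probe sets (4 unadjusted). Of 13 B-lineage probe sets 4 were lower. Over the whole array 8.84% were called, so 0 calls in lists this small cannot be read as the absence of a change.

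In the Ebf1-ER course, Car2 was higher at 6, 12 and 24 h than at 0 h and was the one erythroid gene called at every time. Hbb-y was higher at 6 h and back near its 0 h value at 24 h. Limma called 2 of 9 erythroid probe sets at 6 h, 2 at 12 h and 1 at 24 h against 0 h. Over the whole array 28.9%, 32.4% and 32.3% were called at these times, and with 9 members the erythroid share cannot be told from that background. The 0 h arrays were the only ones without 4-hydroxytamoxifen, and time, drug and active Ebf1-ER cannot be told apart. Between later times 1.38% (12 against 6 h), 2.78% (24 against 12 h) and 6.13% (24 against 6 h) were called.

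Car2 had values of -1.20 and -1.40 at 0 h, 0.31 and 0.30 at 6 h, 0.02 and -0.05 at 12 h, and 0.00 and 0.00 at 24 h. The 0 h pair lay more than 1 log2 unit below every later array, and 6 h was the highest time. The changes from 0 h were 1.60, 1.28 and 1.30, each with an SE of 0.10, or 3.04-fold, 2.43-fold and 2.46-fold (limma adjusted p = 2.5e-05, 4.3e-05 and 5.1e-05). Each call was lost only in the single fit over all groups of the series, among 15 alternatives, but after quantile normalisation again the changes were 1.16, 0.69 and 0.71. At 24 h against 6 h Car2 differed by -0.31 ± 0.10 (SE), which was not called (adjusted p = 0.124). Limma called 0 of 9 erythroid probe sets in that comparison, and 1, Car2, had an unadjusted p under 0.05.

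Slc4a1 on 1434502_x_at had values of -0.18 and -0.18 at 0 h and 0.14 and 0.25 at 6 h. Its change of 0.37 ± 0.10 (SE) was called at 6 h (limma adjusted p = 0.0301) but at neither later time, and it was lost in 6 of 14 alternatives, with each 0 h or 6 h array left out among them. The other Slc4a1 probe sets changed by 0.04 and 0.11 at 6 h and were not called. Epor had 0.10 and 0.31 at 0 h, -0.03 and -0.06 at 6 h, -0.08 and -0.10 at 12 h, and 0.08 and 0.03 at 24 h. Its change at 12 h, -0.30 ± 0.10 (SE), had a limma adjusted p of 0.0492 and was lost in 11 of 14 alternatives, including the fit with a replicate block.

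Gata1 had 0.01 and -0.24 at 0 h and 0.17 and 0.36 at 24 h. The 24 h pair lay above the 0 h pair, with a change of 0.38 ± 0.13 (SE) that was not called (limma adjusted p = 0.0609). Klf1, with -0.39 and 0.33 on the 2 arrays at 6 h, changed by 0.05 to 0.19 over the 3 times. Alas2 changed by -0.15 to 0.19 and Car1 by -0.12 to 0.12, and none of these was called.

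**Figure D2:**
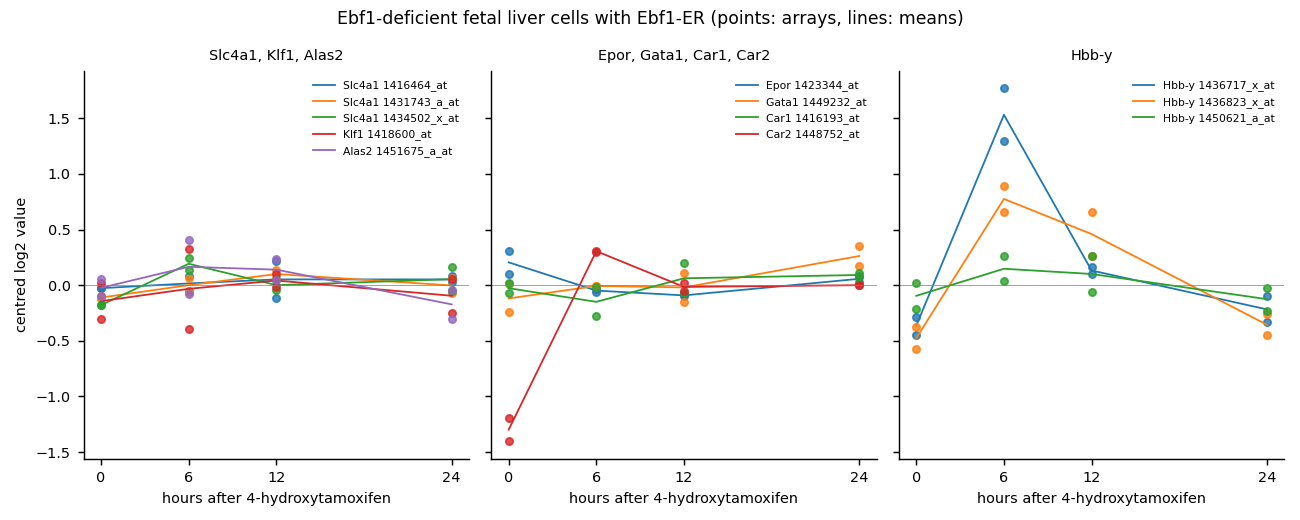
Centred log2 values (vertical axis) against hours of 4-hydroxytamoxifen (horizontal axis) in Ebf1-/- fetal liver cells with Ebf1-ER, with 1 point per array (2 per time) and lines through the means. Car2 stands at -1.30 at 0 h and at 0.31 at 6 h, 2 of the 3 Hbb-y probe sets peak at 6 h, and the other erythroid genes stay within about 0.5 of 0.

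Hbb-y on 1436717_x_at had values of -0.45 and -0.28 at 0 h, 1.77 and 1.29 at 6 h, 0.16 and 0.10 at 12 h, and -0.10 and -0.33 at 24 h. Both 6 h arrays stood above all others. The change was 1.89 ± 0.16 (SE, limma adjusted p = 1.1e-04) at 6 h, and it was -1.75 ± 0.16 at 24 h against 6 h (adjusted p = 0.00102). On 1436823_x_at the 6 h change was 1.25 ± 0.16, and on 1450621_a_at, without the x suffix, it was 0.24 ± 0.15 and not called (adjusted p = 0.296).

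Around these genes, list counts at 24 h against 0 h stand beside 32.3% called over the whole array, both directions together. The lists were not tested against that share, and its split by direction is not given here. Haem synthesis had 9 of 22 probe sets higher and 2 lower. Alad, the second enzyme of the pathway, changed by 1.16 ± 0.21 (SE), and Slc25a37, the mitochondrial iron importer, by -1.45 ± 0.11. Iron uptake had 8 of 25 higher and none lower, with the transferrin receptor Tfrc at 1.48 ± 0.12. The partner transcription factors had 6 higher and 9 lower of 29, with E2f2 at 1.24 ± 0.10 and Lmo2, a bridge between Gata1 and Tal1, at -1.61 ± 0.10. Of the other carbonic anhydrases, Car12, a membrane form, changed by 2.00 ± 0.15. Epo receptor signalling had 2 of 14 probe sets higher and 7 lower, with a median of -0.34. Among the markers of other cells in the same comparison, limma called 1 of 15 mast cell, basophil and eosinophil probe sets, the carboxypeptidase gene Cpa3, at -2.98 ± 0.19 (SE), and that list had a median of 0.03. Of 12 myeloid probe sets 3 were lower, among them the neutrophil enzyme Mpo at -2.01 ± 0.11, and 1 was higher. Stromal markers were lower on 7 of 18 probe sets (median -0.55) and T-cell markers on 4 of 17, and B-lineage markers were higher on 6 of 13 and lower on 1. Their part in the erythroid values was not tested.

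In the tumour experiment 5 of the 7 erythroid genes were lower in lymph nodes than in wild-type pro-B cells. Slc4a1 was 14.3-fold and 41.4-fold lower on 2 probe sets, Alas2 5.0-fold, Klf1 2.53-fold, Gata1 1.64-fold and Car1 1.41-fold. These were 6 of 9 erythroid probe sets lower and 0 higher in the limma test, and none was higher at an unadjusted p under 0.05 either. Over the whole array 15.3% were called, 7% lower and 8.26% higher. As the genes were chosen with earlier results of these data known, this contrast is a description and not a test. The median of the 9 changes was -0.71, beside 0.00 over all probe sets.

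Slc4a1 on 1416464_at ranged over the 8 lymph nodes from -0.23 to 0.52 with a median of -0.04, each node being the mean of its 2 arrays, against 4.11 and 3.61 in wild-type pro-B cells. No lymph node array came near the wild-type values, the highest being 0.89. The log2 change was -3.84 ± 0.19 (SE, n = 8 and 2, limma adjusted p = 4.9e-07). On 1434502_x_at the lymph nodes ranged from -0.25 to 1.19 with a median of 0.03, against 5.81 and 5.24 in wild-type cells, a change of -5.37 ± 0.32 (adjusted p = 2.3e-06). The third probe set, 1431743_a_at, ranged from -0.17 to 0.26 in lymph nodes, against 0.10 and -0.13 in wild-type cells, and differed by 0.02 ± 0.12 (adjusted p = 0.937). The suffix a marks a probe set for several transcripts of a gene, and which Slc4a1 transcripts each probe set reads is not given in the sources used here. The suffix x of 1434502_x_at marks probes that match other transcripts too, and these may contribute to its values.

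Alas2 ranged from -0.33 to 0.25 in lymph nodes with a median of -0.04, against 2.12 and 2.42 in wild-type pro-B cells. The change was -2.32 ± 0.14 (SE, limma adjusted p = 2.0e-06). Klf1 ranged from -0.25 to 0.24 with a median of 0.00, against 1.35 and 1.34, a change of -1.34 ± 0.13 (adjusted p = 1.3e-04). For both genes every lymph node array lay below both wild-type samples. Gata1 ranged from -0.12 to 0.22 with a median of -0.06, against 0.64 and 0.73 in wild-type cells, again without overlap, and changed by -0.71 ± 0.09 (adjusted p = 8.5e-04).

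Car1 ranged from -0.16 to 0.22 with a median of 0.02 in lymph nodes, against 0.72 and 0.28 in wild-type cells. Of the 16 lymph node arrays, 1 of lymph node 277, at 0.35, lay above the lower wild-type sample. The change of -0.49 ± 0.13 (SE, limma adjusted p = 0.0273) was lost in 3 of 17 alternatives, among them the one without wild-type sample 1. Epor ranged from -0.21 to 0.35, against 0.48 and 0.47, and its change of -0.44 ± 0.15 was not called (adjusted p = 0.0841). Car2 ranged from -2.77 to 0.67, against 0.05 and -0.12, so the wild-type samples lay inside the range of the lymph nodes and the change of -0.29 ± 0.74 was not called (adjusted p = 0.845).

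The 5 probe sets of Slc4a1, Alas2, Klf1 and Gata1 that were called kept the call in all 17 alternatives. When the arrays were quantile-normalised again, the changes were smaller, at -2.06 and -2.91 for Slc4a1, -1.28 for Alas2, -0.77 for Klf1 and -0.48 for Gata1. That setting gives every array of the experiment the same distribution of centred values, so it cannot show which sizes are right.

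**Figure D3:**
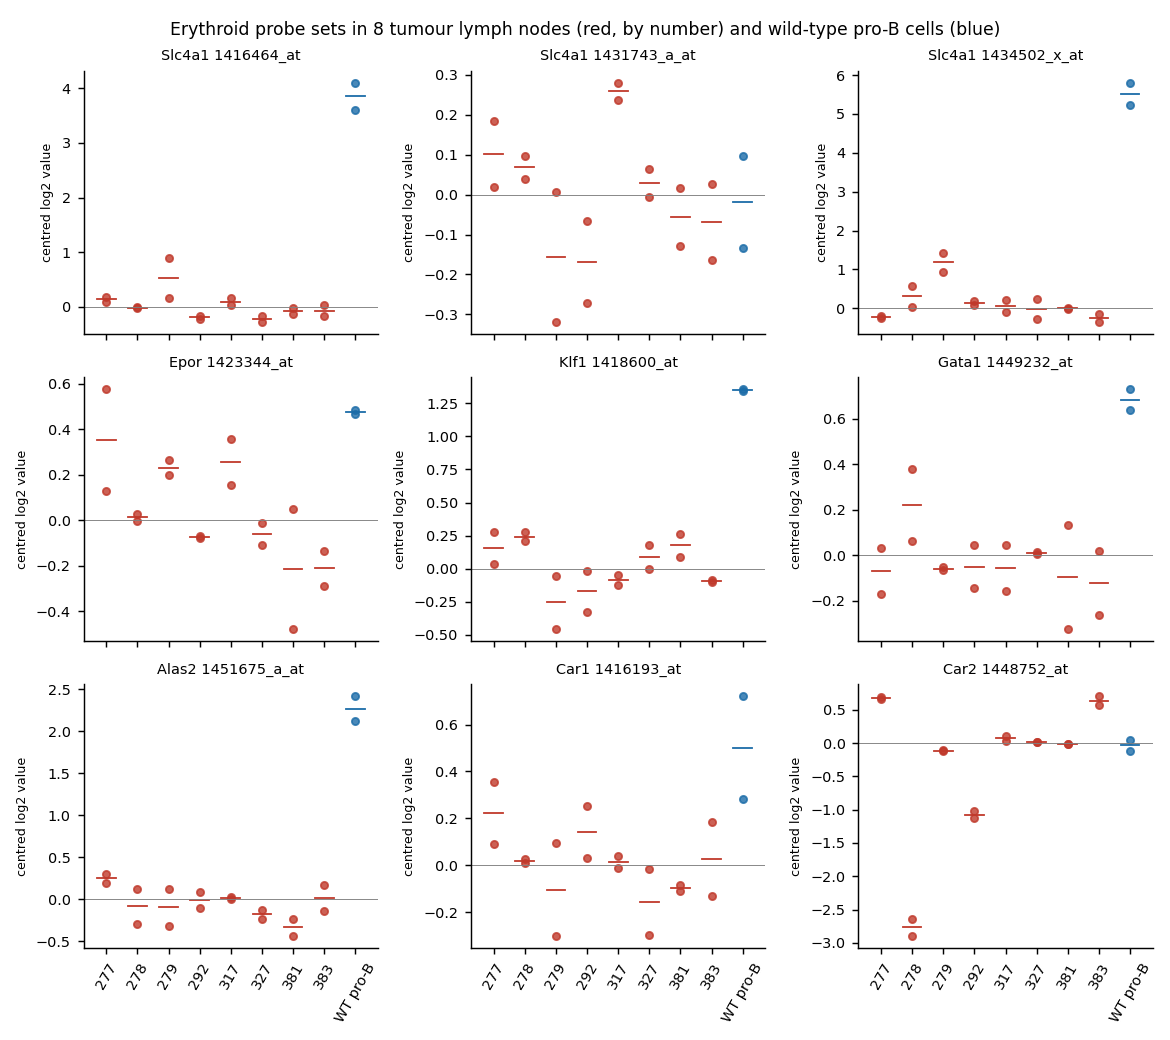
Centred log2 values (vertical axes, which differ between panels) of the 9 erythroid probe sets in 8 tumour lymph nodes (red, 2 arrays each, numbered as in the labels) and in wild-type pro-B cells (blue, 2 samples), with a bar at each mean. Slc4a1 on 2 probe sets, Klf1, Gata1 and Alas2 are higher in both wild-type samples than in every lymph node array, and Car2 is lowest in lymph node 278, then 292.

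Some other red cell genes were also lower. List medians were -0.23 for membrane and skeleton, -0.08 for globins and -0.09 each for haem synthesis and iron uptake. They were -0.06 for partner transcription factors and 0.09 for Epo receptor signalling. Over the whole array 7% were lower and 8.26% higher, and none of the lists was tested against these shares. Hbb-b2, an adult beta-globin chain, had both of its probe sets lower and accounted for the 2 of 11 globin probe sets called. On 1427866_x_at the change was -3.04 ± 0.21 (SE, limma adjusted p = 6.9e-06), with lymph nodes at -0.28 to 0.41, against 3.47 and 2.67 in wild-type cells. The gap was smaller on 1427865_at, with lymph nodes at -0.13 to 0.09, against 0.97 and 0.82 in wild-type cells. As 1427866_x_at has the x suffix, other globin transcripts may contribute to its change. Hbb-y, which moved in the other experiments, was not called on any of its 3 probe sets here, with changes of 0.14, 0.00 and -0.31.

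Of 23 probe sets for membrane and skeleton, 8 were lower and 1 was higher. Kel, the Kell blood group protein, ranged from -0.15 to 0.08 in lymph nodes, against 1.77 and 1.72 in wild-type pro-B cells, and changed by -1.78 ± 0.09 (SE, adjusted p = 5.0e-07). Rhag, the Rh-associated glycoprotein, changed by -1.81 ± 0.18 and the water channel Aqp1 by -2.18 ± 0.34. Of the 29 partner transcription factor probe sets, 8 were lower and 3 higher. Nfe2, an activator of globin genes, changed by -2.40 ± 0.30, E2f2 by -2.03 ± 0.40 and Gata2, the Gata factor of earlier progenitors, by -1.71 ± 0.13.

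Haem synthesis had 4 of 22 lower and 2 higher, all within 0.7 log2 units, such as ferrochelatase, Fech, at -0.54 ± 0.13 (SE). In the iron list 2 of 25 were lower and 4 higher. Trim10, an erythroid ubiquitin ligase family member, changed by -1.57 ± 0.12, and Tfrc by 1.00 ± 0.26. Among 14 probe sets for Epo receptor signalling limma called 0, also at an unadjusted p under 0.05.

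Markers of other blood and stromal cells moved with the erythroid genes. Of 12 myeloid probe sets 9 were lower in lymph nodes, with S100a9 at -7.99 ± 1.45 (SE), S100a8 at -7.67 ± 1.49 and Mpo at -7.21 ± 0.20. The mean of the list ranged from -0.99 to 0.78 over lymph node arrays, against 3.60 and 3.79 in wild-type pro-B cells. Of 15 mast cell, basophil and eosinophil probe sets 10 were lower, with the basophil protease Mcpt8 at -6.39 ± 0.23 and histidine decarboxylase, Hdc, at -5.69 ± 0.20. Their mean ranged from -0.16 to 0.21, against 2.08 and 2.19 in wild-type cells.

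The mean of the 9 erythroid probe sets ranged from -0.28 to 0.25 over lymph node arrays, against 1.71 and 1.54 in wild-type cells. Megakaryocyte markers were lower on 4 of 11 probe sets and stromal markers on 8 of 18, and B-lineage markers on 1 of 13. The B-lineage list had a median of -0.67, with 4 of 13 at an unadjusted p under 0.05. T-cell markers had 0 of 17 called by limma and 1 at an unadjusted p under 0.05. The part of these cells in the erythroid difference was not tested, and the centred values do not show which defining markers are near 0.

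**Figure D4:**
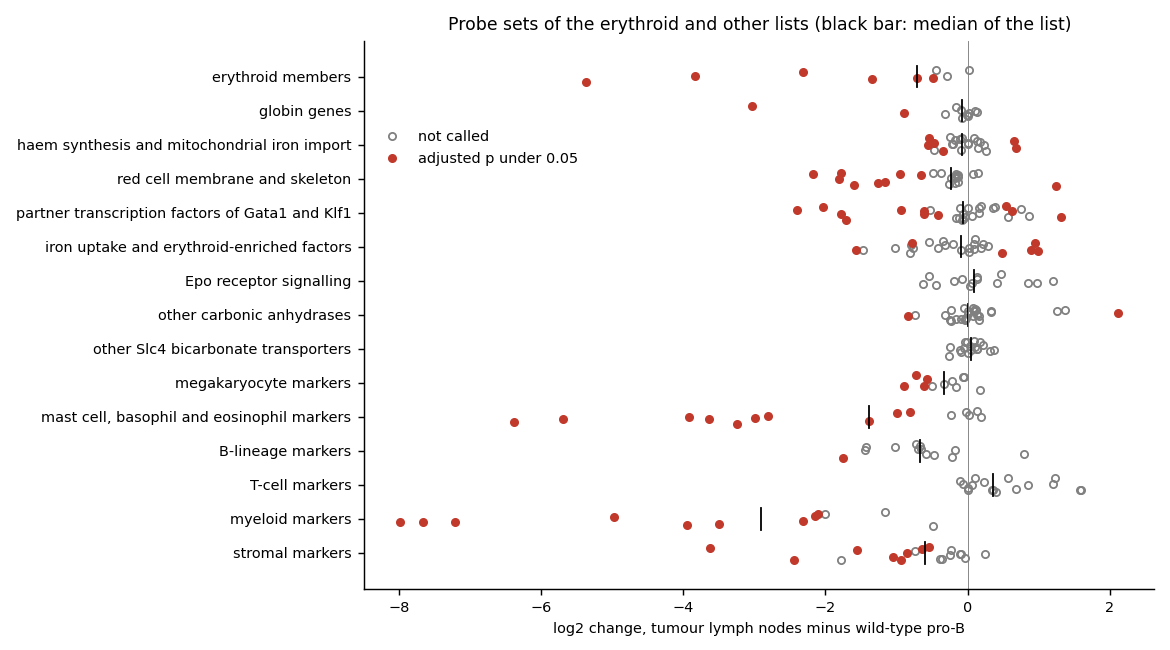
Log2 change of each probe set (horizontal axis, tumour lymph nodes minus wild-type pro-B cells) by gene list (rows), filled red where limma's adjusted p is under 0.05, with a black bar at the median of each list. The myeloid list (median -2.91), the mast cell, basophil and eosinophil list (-1.38) and the erythroid genes (-0.71) have the lowest medians of the lists shown.

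Profiles most like those of the called genes were found by Pearson correlation over the 10 samples of the tumour experiment. For the called lower genes these correlations mainly reflect the gap between lymph nodes and the 2 wild-type samples, and they are given as a description. Slc4a1 (1416464_at) was closest to Clec4d, Fzd6 and Lrg1, with r from 0.994 to 0.996. Alas2 was closest to Adgrl4, Rbm24 and 6430548M08Rik (all 0.996), Klf1 to Mir99ahg, Hc and Cxcl12 (0.980 to 0.982), and Gata1 to Klf5, Tmcc2 and Dab2ip (0.985 to 0.992). Car2 was closest to E230016M11Rik, Dipk2a and Arhgef5 (0.898 to 0.921) there, and in the Ebf1-ER course (n = 8 arrays) to Asrgl1, Minpp1 and Timm10b (0.996 to 0.997). By rank (Spearman) these Car2 correlations were 0.576 to 0.806 and 0.786 to 1.00. Car2 was far lowest in lymph node 278 and at 0 h, and the part of those arrays in the correlations was not tested.

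Among the 9 erythroid probe sets, Car2 had the widest range over the 8 lymph nodes. Limma's moderated F test over their 16 arrays called 3 of 9 erythroid probe sets, where 54.1% of all probe sets were called, and the erythroid share was not above that background. The median range between the highest and lowest lymph node was 0.57 for the 9 and 0.50 for all probe sets. The error term of the F test is the difference between paired arrays of each node, possibly a technical one.

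Car2 had values of -2.64 and -2.90 in lymph node 278 and -1.02 and -1.13 in lymph node 292. In lymph nodes 279, 317, 327 and 381 all arrays lay between -0.12 and 0.10, and they reached 0.66 and 0.69 in 277 and 0.70 and 0.57 in 383. The 2 arrays of each lymph node were close together, and the range between node means was 3.44, or 10.9-fold (limma adjusted p = 5.3e-10), called in all 14 alternatives. Without lymph node 278 the range was 1.75 on the log2 scale (adjusted p = 1.2e-07). Slc4a1 on 1434502_x_at was highest in lymph node 279, at 1.42 and 0.95, and its call (adjusted p = 0.00199) was lost without that lymph node (0.234). Slc4a1 on 1416464_at had 0.16 and 0.89 there, with an adjusted p of 0.0474 that was lost in 8 of 14 alternatives.

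Lymph node 279 also had the highest values of the T-cell receptor chain gene Cd3g, at 4.45 and 4.64, and of S100a9, at 4.12 and 4.07. Over the other lymph nodes Cd3g lay between -2.32 and 2.60 and S100a9 between -1.99 and 2.56. Their part in the Slc4a1 values of lymph node 279 was not tested.

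The genes Car13, Car1, Car3 and Car2 follow each other in this order among the protein-coding genes of chromosome 3 in the RefSeq table of GRCm38.p6. Car3, a low-activity form found mainly in muscle and fat, had -2.96 and -3.24 in lymph node 278 and -3.51 and -3.77 in lymph node 292 on 1449434_at, against -0.30 to 1.40 in the others. Of the other Car3 probe sets, 1460256_at averaged -1.36 in lymph node 278 and -1.41 in 292, while 1430584_s_at averaged 0.08 and -0.18 there and 1453588_at 0.11 and -0.03. Car13, another cytosolic form, had -2.28 and -2.33 in lymph node 278 and -2.31 and -1.89 in lymph node 292 on 1421307_at. The next lowest lymph node for Car13 was 381, at -1.02 and -1.03. Both genes varied between lymph nodes in limma's F test (adjusted p = 2.4e-11 and 3.4e-08), with ranges of 5.01 and 2.86. Car1, which lies between Car13 and Car3, had 0.01 and 0.03 in lymph node 278 and 0.25 and 0.03 in lymph node 292, and was not called (adjusted p = 0.369).

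**Figure D5:**
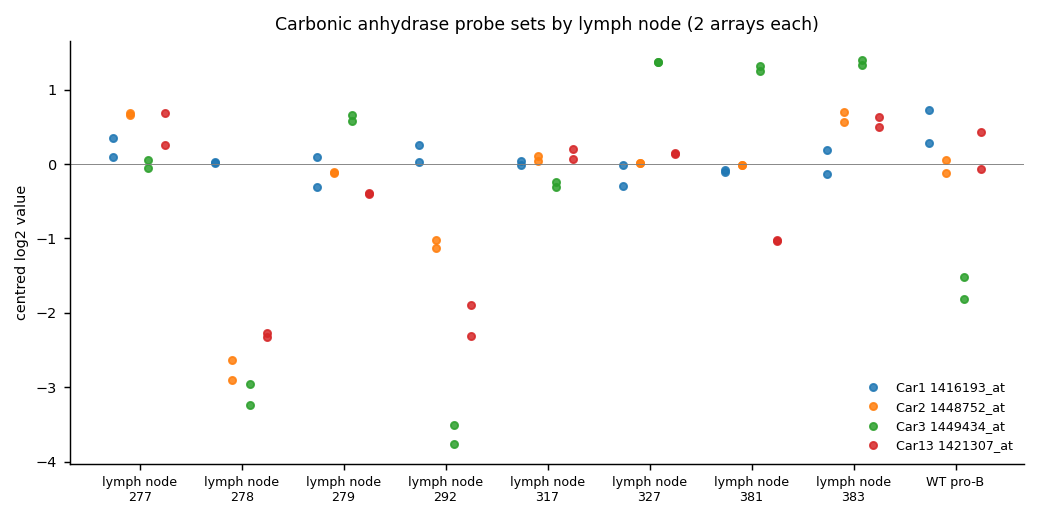
Centred log2 values (vertical axis) of 1 probe set each for Car1, Car2, Car3 and Car13 in the 8 tumour lymph nodes and, at the right, in wild-type pro-B cells (2 points each). Car2, Car3 and Car13 are lowest in lymph nodes 278 and 292, where Car1 stays near 0.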

How the data were processed

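Labelled RNA was amplified from its 3' end and measured on Affymetrix whole-genome mouse arrays. The authors deposited log2 values as 1 matrix. Per the submitters' processing notes RMA was used. No source states the log base, which was taken as 2. Medians over the arrays were 0 for all 45101 probe sets in the 230238 and Ebf1-ER experiments and for 10846 in the tumour experiment, so values were centred before deposit. Array medians lay between -0.01 and 0.05, no 2 arrays were identical, and the number of arrays limits the precision.

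Symbols came from the platform annotation, updated through the RefSeq genes supplied, with control probe sets left out. Differences were fitted for each experiment with limma 3.58.1 in R 4.3.3 (tables read with data.table, version 1.17.8), over all probe sets, with two-sided tests, Benjamini-Hochberg adjustment and a threshold of 0.05. Errors are limma's SE. The 2 arrays of a lymph node were averaged before comparison with wild-type cells. The procedure was tested on simulated data. Genes beside the 8 were taken from fixed lists, naming for each list and comparison up to 3 called genes with the largest change among those whose groups did not overlap, and the 3 genes most alike to each called member. The genes and lists were chosen with earlier results of these data known.

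In the 230238 experiment samples with the same number deviated together (correlations 0.256, 0.388 and 0.481 over probe sets). Samples numbered 1 and 2 also correlated across numbers (0.344 and 0.123), while samples numbered 3 stood apart from both (-0.454 to -0.234). Ebf1-Eng sample 1 correlated more with empty vector sample 2 (0.344) than with empty vector sample 1 (0.256). These correlations do not show pairing by number. The labels state no pairing, and the main tests did not pair the samples. The number was used as a block only in an alternative. Alternatives changed the scaling, the filter, the unit of the test, the variance model, the block, the samples in the fit and each replicate in turn.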

Additional observations from a re-analysis of the deposited data

Results flagged for a closer look

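Over the 8 lymph nodes, 37 probe sets were examined for a single stray node, the 9 erythroid ones and the named genes of the lists, and 5 had one. Chance flags about 1 in 20 groups. Slc4a1 on 1434502_x_at was at 1.19 in lymph node 279, with the next at 0.31. Gata1 was at 0.22 in lymph node 278, with the next at 0.01, and both lay below the wild-type pro-B cells. The water channel gene Aqp1 was at 1.35 in lymph node 317, with the next at 0.22. The basophil gene Mcpt8 was at 0.67 in lymph node 327, with the next at 0.16. The stromal chemokine gene Cxcl12 was at 0.19 in lymph node 292, with the next at 0.03. No cause was tested.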

How the results depend on the processing

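Counts of called erythroid probe sets kept their main value within 1.5 times except in the settings given here. A single fit over all groups called 1 for Ebf1-Eng against the empty vector and 0 at 6, 12 and 24 h against 0 h. Quantile normalisation again called 1 at 6 h, 1 at 12 h and 1 at 24 h against 6 h. Leaving out the 50% of probe sets with the lower variance called 1 at 6 h and 1 at 12 h. That filter took Slc4a1 on 1434502_x_at and Epor out before the test, so their calls were not tested there. The mean per gene called 1 at 6 h and 2 at 24 h, and robust eBayes 1 at 12 h. With each sample left out in turn, the counts were 0 to 2 for Ebf1-Eng, 1 to 2 at 6, 12 and 24 h against 0 h, 0 to 0 at 24 h against 6 h, 5 to 7 in lymph nodes against wild-type cells and 2 to 3 among lymph nodes. A group left with 1 sample was assumed to vary like the others. Of 916 values of single probe sets under alternatives, 843 kept direction and side of the threshold, 37 lost a call, 8 gained one and 28 moved without a call. The causes were not tested.

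With the replicate number as a block, 2 erythroid probe sets were called for Ebf1-Eng, 2 at 6 h, 1 at 12 h (Epor was lost), 1 at 24 h, 0 at 24 h against 6 h and 3 among lymph nodes (Slc4a1 on 1416464_at was lost and on 1431743_a_at gained). The block changed no call of an erythroid probe set for Ebf1-Eng. In the Ebf1-ER course samples with the same number correlated between -0.17 and 0.13, and in the tumour experiment between 0.07 and 0.22, over 0.1 in 50 of 56 pairs. With 2 arrays per group their deviations mirror each other, so each correlation is counted 2 times among the pairs. All tumour correlations were positive, so arrays of the same number shared some deviation there. Neither experiment had every pair over 0.1, and the numbers were not taken to pair samples there. With both samples numbered 3 left out of the Ebf1-Eng comparison, an alternative added after seeing the data, 2 were called, Gata1 and Car2, as with all samples. Signal over background could not be read from centred values.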
